A study of Oryza sativa with 7 samples.

Results

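In RNA from whole rice caryopses, 83 genes had a low transcript level in a single library, the second wild-type replicate, and a clear level in all 5 other libraries. A gene was taken if its level was at least 5 RPKM in each of those 5 libraries and if its level in wild-type replicate 2 was at most 0.35 times the lowest of the 5. RPKM is a read count scaled by the length of the gene model and by the size of the library. Of the 35825 rows of the table, 35484 carry a rice RAP identifier and 13236 of these reached 5 RPKM in the 5 libraries. The 83 genes are 0.627% of those 13236 rows, and 3 further rows that meet the thresholds were set aside by identifier. Because the level in wild-type replicate 2 chose the genes, that level is described below and is not tested.

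The libraries came from the cultivar Kitaake of rice (Oryza sativa), grown in the field, and the grains were taken at 2 days after fertilization. The wild type (WT) had 3 libraries, the mutant allele osbzip76-1 had 2, and the independent allele osbzip76-2 had 1 library with a column in the table used here. Both alleles affect OsbZIP76, a basic leucine zipper transcription factor, and the study asked how its loss changes the transcriptome of the young grain. The labels call the replicates biological and do not say how many plants went into each. According to the series description, a hot season had brought endosperm cellularization forward in WT and mutant grains alike. The labels name the tissue as caryopsis, while the extraction protocol speaks of endosperm.

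The caryopsis of a cereal is the young grain, in which maternal layers (the nucellus, the seed coats and the pericarp) surround the embryo and the endosperm. The endosperm first divides as a syncytium, then forms cell walls around its nuclei and later fills with starch and storage protein. Its share of the grain grows quickly at this age, so genes of starch synthesis and the transcription factors of the endosperm rise as the grain develops. In RNA from a whole grain, fewer cells of a type and less RNA per cell cannot be told apart.

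The 6 libraries had 19900850 to 24887952 reads behind their RPKM values, of which 82.8% to 85.7% lay in genes. WT replicate 2 had the lowest share in genes (82.8%), and the number of genes with a read was also lowest there, at 26910 against 27560 to 29012 elsewhere. Its total of 22504199 reads lay within the range of the others. The same rule applied to each other library in turn found 1 gene low only in WT replicate 1, 1 in WT replicate 3, 1 in osbzip76-1 replicate 1, 0 in osbzip76-1 replicate 2 and 2 in osbzip76-2 replicate 2. In the opposite direction, 11 rows were at 5 RPKM or more in WT replicate 2 with every other library at most at 0.35 times that level. A pattern confined to 1 library of this kind was thus found for 86 rows in WT replicate 2, the 3 set aside included, and for at most 2 rows in any other library.

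None of the 83 identifiers is paired with a gene name in the table or in the gene table used for names, so the genes are given by identifier and no function is stated for them. The table names 341 other rows by symbol, and those are used below to describe the rest of the transcriptome in WT replicate 2.

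In WT replicate 2 the 83 genes stood at a median of 26.2% of the lowest of the other 5 libraries. They were at 0 for 4 genes, at or below 10% for 11 including those 4, between 10% and 20% for 8, between 20% and 30% for 37 and over 30% for 27. The median level was 12.2, 2.50 and 12.8 RPKM in WT replicates 1, 2 and 3, 17.2 and 20.8 RPKM in the osbzip76-1 libraries and 17.2 RPKM in the osbzip76-2 library. The medians of WT replicates 1 and 3 lay close together, which the rule does not require, and the mutant libraries had the higher medians. WT replicate 2 lay far below them all, as the rule requires. Summed over the genes, the level was 3046, 627 and 2855 RPKM in WT replicates 1, 2 and 3, against 4338, 4392 and 3546 RPKM in the 3 mutant libraries.

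By the rule, the genes were at 5 RPKM or more in each of the 5 other libraries. Their mean over the 5 other libraries ran from 5.63 to 746 RPKM with a median of 18.6 RPKM, and the 13236 rows had a median of 18.2 RPKM. It was over 100 RPKM for 9 genes, between 10 and 100 RPKM for 51 and under 10 RPKM for 23. Read numbers in WT replicate 2 ran from 0 to 1966 with a median of 78 reads, and 6 genes had fewer than 10. In the other libraries the same genes had 43 to 22251 reads.

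**Figure D1:**
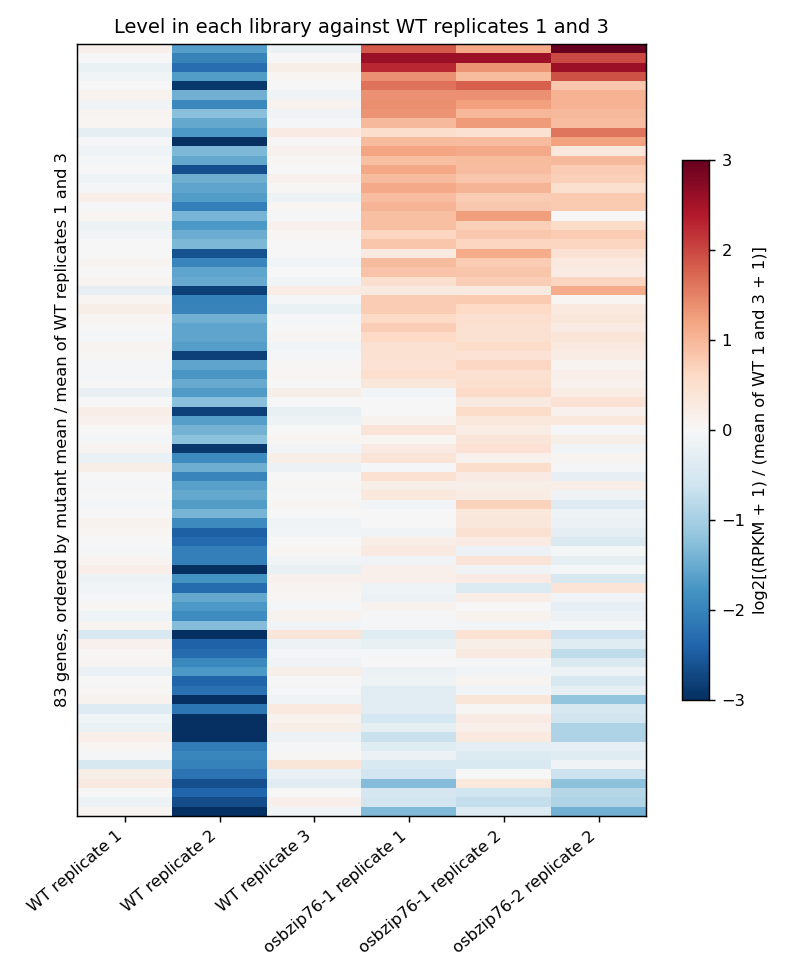
Each row is 1 of the 83 genes and each column a library, and color gives the log2 ratio of (RPKM + 1) to the mean of WT replicates 1 and 3 plus 1. The rows run from the highest to the lowest ratio of mutant mean to that WT mean. WT replicate 2 is blue throughout because the rule chose the genes that way, and the upper part of the map is red in all 3 mutant columns, where the 37 genes with every mutant library above both WT libraries lie.

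Among the 5 libraries whose lowest value enters the rule, the 83 genes had a wider range than other rows. The ratio of the highest to the lowest of these 5 had a median of 1.80 for the 83 genes and 1.32 for the 13236 rows, and it exceeded 2 for 32 genes. The lowest of the 5 values fell in WT replicate 1 for 27 genes, in WT replicate 3 for 23 and in osbzip76-2 replicate 2 for 26, but in the osbzip76-1 libraries for only 4 and 3. The highest fell in the osbzip76-1 libraries for 25 and 32 genes, in osbzip76-2 for 11, and in WT replicates 1 and 3 for 7 and 8. The rule divides by the lowest of the 5, so it sets part of these counts. They are not given here for the 13236 rows, so they do not show a trait particular to the 83 genes.

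The mutants were then compared with WT replicates 1 and 3 alone, leaving out the library that chose the genes. This contrast is not free of the choice. The rule divides by the lowest of the 5 libraries, so a gene with low mutant levels is passed over more often than one with high mutant levels, and counts of direction over the 83 genes are partly set by the rule. All 3 mutant libraries lay above both WT libraries for 37 of the 83 genes (44.6%), against 14.8% of the 13236 rows. All 3 lay below both for 6 genes (7.23%), against 19.7% of those rows, and the groups overlapped for the other 40. Among the 37 genes the mutant mean was 1.14 to 5.59 times the WT mean, with a median of 1.75 times. Over all 83 genes the median log2 fold change was 0.21, with a range of -1.05 to 2.37, and 55 genes lay above 0. Over all genes tested the median was -0.04 and 43.1% lay above 0.

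A choice of genes that used no mutant value gave a different balance. When WT replicate 2 was set against the lower of WT replicates 1 and 3 only, 173 genes were found, the 83 among them. All 3 mutant libraries lay above both WT libraries in 37 of the 173 (21.4%) and below both in 36 (20.8%), at a median log2 fold change of -0.19. Among all 14217 rows with at least 5 RPKM in both WT libraries, the shares were 13.8% above and 21.9% below, at a median of -0.03. The 90 genes outside the 83 had 0 with all mutants above, which the rule fixes, and 30 with all mutants below. The near-equal counts in the 173 are thus partly set by the choice, which could add no gene with all mutants above. No balance between the directions is read from them. This choice was made after the values were seen and favours the opposite direction, since it asks for high levels in WT replicates 1 and 3.

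With limma on log2(RPKM + 1), 8 of the 83 genes (9.64%) were higher in the mutants at an adjusted p below 0.05, and none was lower. Of all 21521 genes tested, 84 were called higher (0.39%) and 24 lower (0.112%). Of the 13236 rows, 34 were called higher. The rule favours genes with high mutant levels, and its part in the excess over these shares was not measured. Of the 173 genes chosen by WT libraries only, 8 were called higher and 1 lower. Among all 14217 rows with at least 5 RPKM in WT replicates 1 and 3, 34 were called higher and 20 lower. At an unadjusted p below 0.05, limma put 34 of the 83 genes higher and 5 lower in the mutants. Over both directions, 3257 of all 21521 genes tested were below that p.

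Os03g0654700 had the largest change of the 8. It stood at 30.09 RPKM in WT replicate 1 and 29.97 RPKM in WT replicate 3, at 6.74 RPKM in WT replicate 2, at 183 RPKM in both osbzip76-1 libraries and at 122 RPKM in osbzip76-2. The 2 WT libraries nearly coincided and every mutant library was several times higher, with a log2 fold change of 2.37 ± 0.19 (SE) and a limma adjusted p of 0.0038.

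Os06g0214300 stood at 11.2, 3.34 and 12.0 RPKM in WT replicates 1, 2 and 3, at 22.6 and 23.5 RPKM in osbzip76-1 and at 23.7 RPKM in the osbzip76-2 library. Os02g0576400 stood at 70.3, 7.13 and 73.0 RPKM in WT, at 138 and 139 RPKM in osbzip76-1 and at 166 RPKM in the osbzip76-2 library. Os06g0199402 stood at 51.4, 16.5 and 47.8 RPKM in WT, at 98.8 and 121 RPKM in osbzip76-1 and at 95.7 RPKM in the osbzip76-2 library. In each of these 3 the mutant libraries lay at about double WT replicates 1 and 3, with no overlap, and the limma log2 fold changes were 0.94 ± 0.10, 1.03 ± 0.12 and 1.06 ± 0.13 (SE), at adjusted p values of 0.012, 0.019 and 0.023.

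Os05g0559800 was at 14.2, 4.28 and 12.3 RPKM in WT replicates 1, 2 and 3, at 35.8 and 36.1 RPKM in osbzip76-1 and at 28.4 RPKM in the osbzip76-2 library. Os04g0458800 was at 14.7, 3.39 and 17.1 RPKM in WT, at 43.6 and 38.3 RPKM in osbzip76-1 and at 33.6 RPKM in the osbzip76-2 library. Both were higher in all mutant libraries, and in both the osbzip76-2 library was the lowest of the 3. Their limma log2 fold changes were 1.27 ± 0.14 and 1.22 ± 0.14 (SE), at adjusted p values of 0.015 and 0.016.

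Os05g0574900 was at 17.8, 3.74 and 19.3 RPKM in WT replicates 1, 2 and 3, and at 38.6, 33.2 and 32.4 RPKM in the mutant libraries. Os09g0532200 was at 6.32, 1.89 and 5.41 RPKM in WT, and at 16.5, 12.7 and 12.4 RPKM in the mutant libraries. These 2 had the highest adjusted p of the 8, 0.031 and 0.041 by limma, with log2 fold changes of 0.87 ± 0.11 and 1.11 ± 0.15 (SE). In all 8 genes WT replicate 2 lay below the other WT libraries and the mutants above them, so that WT replicates 1 and 3 were in the middle. The rule sets WT replicate 2 lowest, and a call of higher in the mutants favours the rest of this order.

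**Figure D2:**
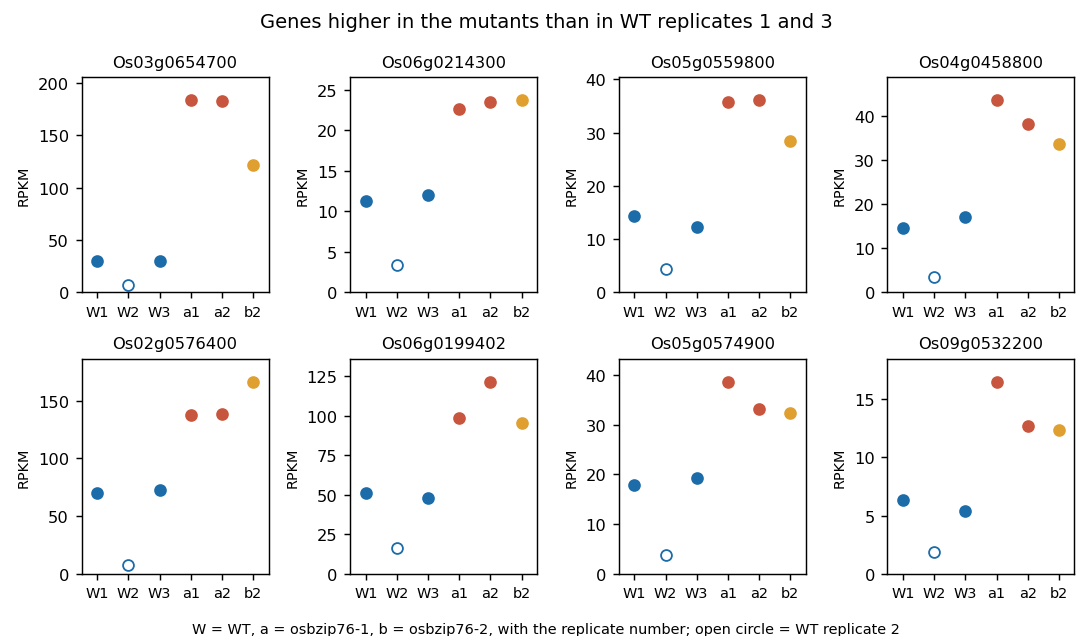
RPKM (linear axis from 0) in each library for the 8 genes called higher in the mutants. Filled circles are the libraries tested, open circles are WT replicate 2, which was left out of the test, and every mutant circle lies above the filled WT circles, for example 122 to 183 against 29.97 and 30.09 RPKM for Os03g0654700.

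The calls depend on how WT is represented. With WT replicate 2 put back, all 83 genes had a log2 fold change above 0, which the choice of genes favours, and the 8 genes had larger values, from 1.46 to 3.04. None of the 83 was then called by limma, the 8 genes had adjusted p values from 0.072 to 0.304, and 30 of the 83 were higher at an unadjusted p below 0.05. The choice of genes favours this loss of calls too, because it sets WT replicate 2 far from the other WT libraries. The SE of the 8 ran from 0.10 to 0.19 without WT replicate 2 and from 0.34 to 0.77 with it. Without WT replicate 1 or without WT replicate 3, when WT was a single library assumed to vary like the others, limma again called 0 of the 83, with 25 and 23 genes higher and 3 and 3 lower at an unadjusted p below 0.05. Without osbzip76-1 replicate 1, limma called 2 of the 83 higher, beside 48 higher and 12 lower of all 21584 genes tested. Without osbzip76-2 replicate 2 it called 25 of the 83 higher, beside 309 higher and 245 lower of all 21367 genes tested. Counts over all genes at an unadjusted p are not given here for these refits.

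The order of mutant and WT libraries was also counted in rows that the rule left out. In the rows just above the threshold, where WT replicate 2 was between 0.35 and 0.5 times the lowest of the others, all mutants lay above both WT libraries in 44 of 153 rows (28.8%). The share was 18.8% of 664 rows between 0.5 and 0.7, 17.5% of 1884 rows between 0.7 and 0.9, 16.7% of 3312 rows between 0.9 and 1.1 and 12.2% of 7137 rows above 1.1. The opposite order, all mutants below both, held for 7.19% of the rows between 0.35 and 0.5 and for 24.8% of those above 1.1. The lowest of the 5 libraries enters both the ratio and the order, so the ratio itself sets part of this fall, and the shares are descriptions.

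**Figure D3:**
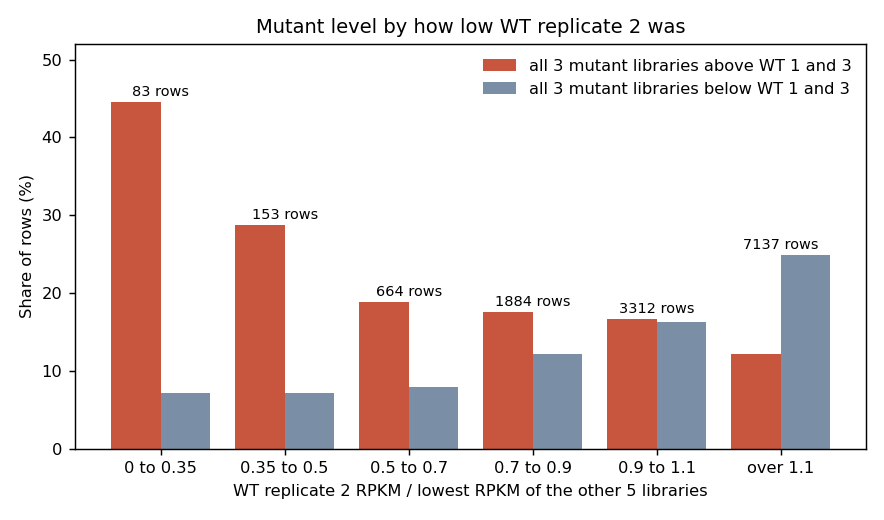
Share of rows, in percent, in which all 3 mutant libraries lay above (red) or below (grey) WT replicates 1 and 3, for rows grouped by the ratio of WT replicate 2 to the lowest of the other 5 libraries. The 83 genes are the leftmost group, at 44.6% above and 7.23% below, and the red bars fall from left to right, partly because the lowest library enters both axes.

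The most abundant of the 83 was Os05g0417700, at 654, 145 and 504 RPKM in WT replicates 1, 2 and 3, 983 and 876 RPKM in osbzip76-1 and 710 RPKM in the osbzip76-2 library. All 3 mutant libraries were above both WT libraries, but the 2 WT libraries also differed from each other, and the gene did not pass the test (log2 fold change 0.56 ± 0.20 SE, limma adjusted p = 0.26). Os05g0156900 came next, at 189, 29.1 and 187 RPKM in WT and at 420, 356 and 321 RPKM in the mutant libraries. Its groups did not overlap, and its limma adjusted p of 0.051 was just outside the threshold at a log2 fold change of 0.95 ± 0.14 (SE).

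Other abundant genes had mutant levels near those of WT replicates 1 and 3. Os04g0432300 was at 141, 33.9 and 123 RPKM in WT and at 130, 130 and 97.6 RPKM in the mutants. Os05g0217000 was at 137, 22.7 and 114 RPKM in WT and at 107, 142 and 97.0 RPKM in the mutants, and Os02g0285300 was at 115, 22.0 and 113 RPKM in WT and at 129, 136 and 83.9 RPKM in the mutants. In these 3 the groups overlapped and the osbzip76-2 library was the lowest of the 5. A low level in WT replicate 2 was thus not always joined to a high level in the mutants.

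Os04g0167900 and Os07g0274700, the remaining 2 genes among the 10 most abundant that were not called, had all mutant libraries above both WT libraries. Os04g0167900 was at 114, 33.6 and 101 RPKM in WT and at 148, 158 and 131 RPKM in the mutants, and Os07g0274700 was at 89.7, 30.1 and 93.9 RPKM in WT and at 124, 142 and 96.8 RPKM in the mutants. The differences were small, with log2 fold changes of 0.44 ± 0.12 and 0.38 ± 0.16 (SE) and limma adjusted p values of 0.19 and 0.34.

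The 4 genes without a read in WT replicate 2 behaved differently from the called ones. Os04g0498650 stood at 57.4 and 75.6 RPKM in WT replicates 1 and 3, at 53.7 and 73.6 RPKM in osbzip76-1 and at 34.7 RPKM in the osbzip76-2 library. These levels came from 2474, 3368, 1911, 2781 and 1467 reads, against 0 of 22504199 reads in WT replicate 2. With 3 reads as the limit that a count of 0 allows in that library, its level there was at least 465-fold lower than the lowest of the others. This limit, like those below, covers counting error only.

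Os06g0716750 stood at 53.4 and 48.1 RPKM in WT replicates 1 and 3, at 19.7 and 38.2 RPKM in osbzip76-1 and at 18.0 RPKM in the osbzip76-2 library, and was at least 65.4-fold lower in WT replicate 2. Os02g0742051 stood at 9.29 and 6.65 RPKM in WT, at 9.04 and 7.33 RPKM in osbzip76-1 and at 7.72 RPKM in the osbzip76-2 library, and was at least 55.5-fold lower in WT replicate 2. Os03g0839250 stood at 7.30 and 8.74 RPKM in WT, at 5.23 and 9.63 RPKM in osbzip76-1 and at 5.15 RPKM in the osbzip76-2 library, and was at least 46.3-fold lower in WT replicate 2. In 3 of the 4 genes the mutant and WT libraries overlapped, and in Os06g0716750 the mutants were below WT, with a log2 fold change of -1.05 ± 0.29 (SE) that did not pass the limma test (adjusted p = 0.19).

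The rows whose identifiers lie directly before and after these 4 had no such drop in WT replicate 2. Os04g0498600, beside Os04g0498650, was at 159, 219 and 142 RPKM in WT replicates 1, 2 and 3. Os06g0716700, beside Os06g0716750, was at 168, 187 and 150 RPKM. Os02g0742050, beside Os02g0742051, had 5.12 RPKM in WT replicate 2, 0.62 RPKM in WT replicate 3 and 0 in the other 4 libraries, the reverse of its neighbour. Os03g0839200 and Os03g0839300, on either side of Os03g0839250, were slightly below both other WT libraries in WT replicate 2, at 17.9 against 18.95 and 25.15 RPKM and at 60.2 against 71.5 and 65.6 RPKM. How the authors' counting shared reads between overlapping gene models is not given in the sources used here, and its part in the 4 genes was not tested.

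**Figure D4:**
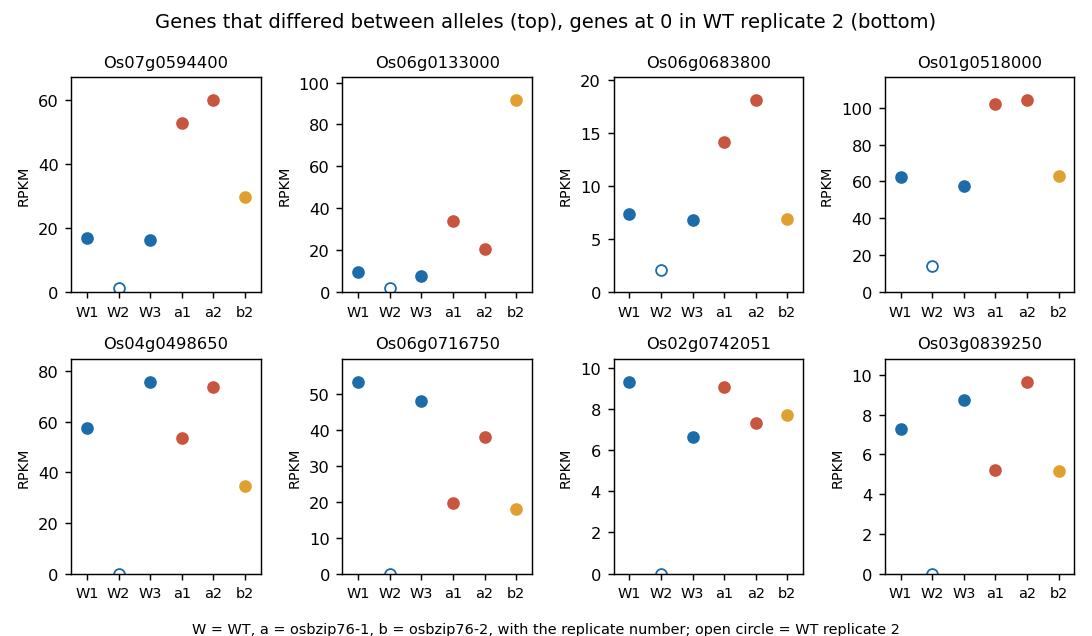
RPKM (linear axis from 0) in each library for the 4 genes that differed between the alleles (top row) and the 4 genes at 0 in WT replicate 2 (bottom row). Open circles are WT replicate 2. In the top row the osbzip76-2 circle stands apart from both osbzip76-1 circles, and in 3 of the 4 lower panels the mutant circles overlap the filled WT circles.

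All 4 of these identifiers end in digits other than 00. In the RAP scheme first-round identifiers end in 00, and other endings mark gene models added later. Such identifiers made up 19 of the 83 genes (22.9%) and 618 of the 13236 rows (4.67%). Among the 64 genes whose identifiers end in 00, all mutants were above both WT libraries in 32, and WT replicate 2 stood at a median of 28.1% of the lowest of the others. Among the 19, all mutants were above in 5 and below in 5, and that median was 21.2%. Among the 13236 rows together all mutants were above in 14.8% and below in 19.7%. These shares were not counted for each kind of identifier, so the counts show no trait of either kind.

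Of the 6 genes with every mutant library below both WT libraries, 5 are among those 19. Os04g0401751 was at 11.6, 1.21 and 14.5 RPKM in WT replicates 1, 2 and 3 and at 8.54, 7.58 and 6.46 RPKM in the mutants. Os07g0661550 was at 10.4, 1.21 and 10.5 RPKM in WT and at 7.09, 6.61 and 5.35 RPKM in the mutants. Os06g0207966, Os09g0514550 and Os02g0649800 had mutant means at 0.853, 0.784 and 0.793 times the WT mean, and none of the 6 passed the limma test.

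The gene models of the 83 were shorter than those of other rows. The lengths that the RPKM values imply had a median of 1131 bases and ran from 360 to 3134 bases, against a median of 1558 bases for the 13236 rows. Models under 1000 bases made up 43.4% of the 83 genes and 22.0% of those rows.

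Among the genes with the lowest levels in WT replicate 2, several others were well expressed elsewhere. Os06g0566201 was at 0.167 RPKM in WT replicate 2, against 6.10 and 6.28 RPKM in the other WT libraries and 7.73, 14.5 and 8.64 RPKM in the mutants. Os11g0222100 was at 0.523 RPKM there, against 10.9 and 20.2 RPKM in WT and 11.9, 21.3 and 9.78 RPKM in the mutants. Os08g0191250 was at 0.587 RPKM, against 11.7 and 8.42 RPKM in WT and 10.1, 15.3 and 11.0 RPKM in the mutants. Only the first of these 3 had all mutant libraries above both WT libraries, and the others overlapped. Os04g0528000 was at 1.35 RPKM in WT replicate 2, against 15.8 and 15.2 RPKM in WT and 21.8, 21.2 and 18.2 RPKM in the mutants, which lay above both without passing the limma test (adjusted p = 0.22).

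Os10g0501900 joined a very low level in WT replicate 2 to a high level in the mutants. It was at 5.18, 0.44 and 6.92 RPKM in WT replicates 1, 2 and 3, at 33.0 and 16.9 RPKM in osbzip76-1 and at 40.6 RPKM in the osbzip76-2 library. The mutants did not overlap WT but spread widely among themselves, and the log2 fold change of 2.07 ± 0.34 (SE) had a limma adjusted p of 0.063.

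The alleles were compared next, as osbzip76-2 against osbzip76-1. This comparison rests on 1 osbzip76-2 library, which is assumed to vary like the libraries of the other groups, so an effect of the allele and a deviation of that library cannot be told apart, and WT replicate 2 was again left out. limma called 4 of the 83 genes, 1 higher in osbzip76-2 and 3 lower, beside 1.06% of all 21521 genes called higher and 0.167% called lower. The median log2 fold change between the alleles was -0.27 over the 83 genes and 0.02 over all genes tested.

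Os06g0133000 was the gene with more transcript in osbzip76-2. It stood at 9.79, 2.10 and 7.67 RPKM in WT replicates 1, 2 and 3, at 34.0 and 20.8 RPKM in osbzip76-1 and at 91.4 RPKM in the osbzip76-2 library. All mutant libraries were above WT, and the osbzip76-2 library was above both osbzip76-1 libraries, with a log2 fold change of 1.74 ± 0.27 (SE) between the alleles and a limma adjusted p of 0.036. Its 5 tested libraries had the widest range of all 83 genes, 11.9-fold from lowest to highest.

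Os07g0594400 was at 16.8, 1.36 and 16.4 RPKM in WT replicates 1, 2 and 3, at 53.0 and 59.9 RPKM in osbzip76-1 and at 29.6 RPKM in the osbzip76-2 library. Its osbzip76-2 level lay between WT and osbzip76-1, and the limma log2 fold change between alleles was -0.91 ± 0.13 (SE, adjusted p = 0.024). Os06g0683800 was at 7.33, 2.06 and 6.75 RPKM in WT, at 14.1 and 18.0 RPKM in osbzip76-1 and at 6.92 RPKM in the osbzip76-2 library. Os01g0518000 was at 62.5, 14.0 and 57.7 RPKM in WT, at 102 and 104 RPKM in osbzip76-1 and at 63.2 RPKM in the osbzip76-2 library. In these 2 the osbzip76-2 library was close to WT replicates 1 and 3 while both osbzip76-1 libraries were higher, with limma log2 fold changes of -1.10 ± 0.18 and -0.70 ± 0.12 (SE) at adjusted p values of 0.044 and 0.046.

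Over the 83 genes the osbzip76-2 library was below both osbzip76-1 libraries in 54 (65.1%), above both in 13 (15.7%) and between them in 16. Among the 13236 rows it was below both in 37.9% and above both in 37.2%. The share below was as high in rows where WT replicate 2 was only moderately low, at 62.7% for ratios between 0.35 and 0.5, 65.4% between 0.5 and 0.7 and 64.4% between 0.7 and 0.9, and it was 20.7% above 1.1. This order of the alleles was therefore shared with many rows in which WT replicate 2 was lower to a smaller degree.

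Genes with a wide range over the 5 libraries differed in the order of the alleles. Os03g0694500 was at 9.79, 2.57 and 10.9 RPKM in WT replicates 1, 2 and 3, at 28.3 and 21.0 RPKM in osbzip76-1 and at 41.4 RPKM in the osbzip76-2 library. Os02g0601500 was at 5.30, 1.37 and 8.20 RPKM in WT, at 10.1 and 9.60 RPKM in osbzip76-1 and at 22.6 RPKM in the osbzip76-2 library. In both the osbzip76-2 library was the highest of all, whereas Os03g0654700, with a wider range, had its highest level in osbzip76-1. The first 2 did not pass either limma test.

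The genes were spread over all 12 chromosomes. Chromosome 6 held 13 of the 83 (15.7%) and 7.77% of the 13236 rows, chromosome 4 held 11 (13.3% against 8.47%) and chromosome 5 held 10 (12.0% against 8.54%). Chromosomes 1 and 3 held 7 each, 8.43% of the genes against 14.5% and 14.7% of the rows. No test was made of this distribution.

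In 2 cases the identifiers of 2 of the genes follow each other with none between. Os04g0167900 is followed by Os04g0168000, which was at 12.2, 2.03 and 11.0 RPKM in WT replicates 1, 2 and 3 and at 10.6, 15.5 and 9.31 RPKM in the mutants. Os06g0229800 was at 14.1, 4.31 and 12.8 RPKM in WT and at 20.9, 19.6 and 17.2 RPKM in the mutants, and its neighbour Os06g0229900 was at 43.9, 9.78 and 38.9 RPKM in WT and at 81.3, 70.7 and 50.8 RPKM in the mutants. The second pair had its order of libraries in common, osbzip76-1 replicate 1 highest and WT replicate 3 lowest of the 5, and the first pair shared its highest library, osbzip76-1 replicate 2, but not its lowest. Reads shared between neighbouring models cannot be told apart from separate transcripts in these values. Across the 107 rows next to any of the genes that had a mean of at least 1 RPKM and were not chosen themselves, 63 (58.9%) had WT replicate 2 below WT replicates 1 and 3, at a median log2 ratio of -0.19.

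The rows that the table names by symbol show which known genes were low in WT replicate 2. Over all 21454 genes with a mean of at least 1 RPKM, 48% had WT replicate 2 below WT replicates 1 and 3 and 36.2% had it above both, with a median log2 ratio of -0.07 to their mean. Of the 102 named rows that reached 5 RPKM in the 5 other libraries, none was at or below 0.35 times their lowest value and 3 were at or below 0.5 times. These were CAX1b, a vacuolar cation exchanger, at 44.0%, AGPL2, which encodes a large subunit of the starch enzyme ADP-glucose pyrophosphorylase, at 46.4%, and KIN13A, a microtubule motor of the kinesin-13 family, at 46.6%.

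Most named genes of starch synthesis were lower in WT replicate 2 than in the other WT libraries. Of its 7 genes, 6 were below both other WT libraries and 1, AGPL1, was above both, at a median log2 ratio of -0.58. AGPL2 stood at 87.4, 37.9 and 81.6 RPKM in WT replicates 1, 2 and 3, at 193 and 167 RPKM in osbzip76-1 and at 193 RPKM in the osbzip76-2 library. AGPS2, a small subunit of that enzyme, which makes the sugar nucleotide for starch, stood at 48.6, 29.4 and 47.2 RPKM in WT and at 84.4, 85.9 and 81.9 RPKM in the mutants. Both had WT replicate 2 lowest and all mutants highest, an order that the way of choosing the 8 called genes favours in those 8. Both were higher in the mutants against WT replicates 1 and 3, by 1.11 ± 0.11 and 0.80 ± 0.09 (SE) on the log2 scale at limma adjusted p values of 0.011 and 0.018. AGPS1 also had WT replicate 2 lowest and all mutants highest. It was at 101, 68.7 and 106 RPKM in WT and at 155, 164 and 142 RPKM in the mutants. AGPS1 was not called (log2 fold change 0.57 ± 0.11 SE, limma adjusted p = 0.094). AGPL3, the most abundant of the 7, was at 396, 333 and 391 RPKM in WT and at 353, 383 and 322 RPKM in the mutants, without that order. AGPL1, AGPL4 and FLO6 lacked it too.

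DOF3, a zinc finger factor that binds the prolamin box of storage protein genes, stood at 18.1, 7.57 and 15.1 RPKM in WT replicates 1, 2 and 3, at 53.9 and 49.3 RPKM in osbzip76-1 and at 39.7 RPKM in the osbzip76-2 library. It was higher in all mutant libraries, with a log2 fold change of 1.46 ± 0.15 (SE) and a limma adjusted p of 0.012. The other 4 endosperm factors of the list found in the table, the basic leucine zipper genes RISBZ1, RISBZ2, RISBZ3 and RISBZ5, were all above both other WT libraries in WT replicate 2. RISBZ1, which activates storage protein genes, was at 2.21, 2.74 and 2.37 RPKM in WT and at 4.68, 4.86 and 5.15 RPKM in the mutants. The median log2 ratio of the 5 endosperm factors in WT replicate 2 was 0.19. Other DOF genes, looked up after the values of DOF3 were seen, had other orders. DOF2 was at 27.0, 43.7 and 25.6 RPKM in WT replicates 1, 2 and 3 and at 20.4, 21.4 and 18.04 RPKM in the mutants, with WT replicate 2 highest and the mutants lowest. DOF4 was at 13.1, 16.4 and 19.01 RPKM in WT and DOF5 at 8.05, 7.76 and 11.0 RPKM.

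**Figure D5:**
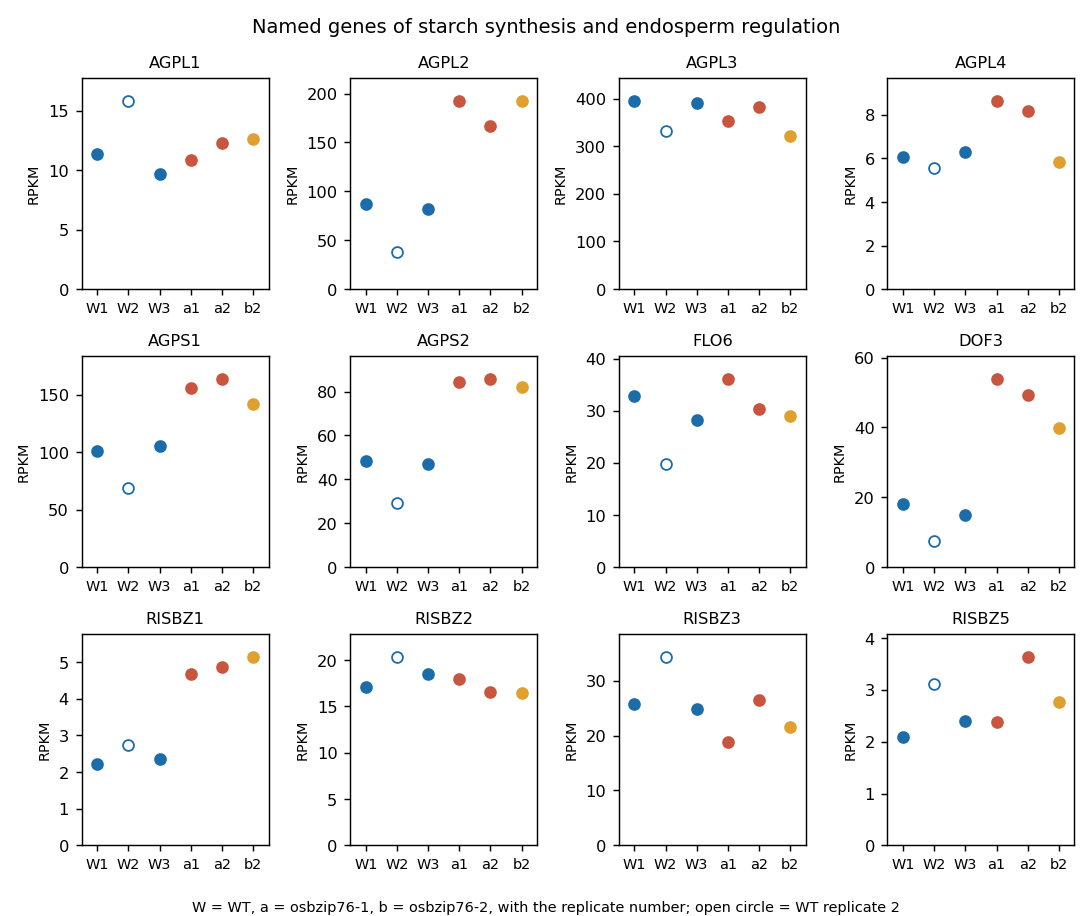
RPKM (linear axis from 0) in each library for the 7 named starch synthesis genes and the 5 named endosperm transcription factors, none of which is among the 83 genes. Open circles are WT replicate 2. AGPL2, AGPS1, AGPS2 and DOF3 show WT replicate 2 lowest and the mutants highest, and the RISBZ genes have WT replicate 2 above both filled WT circles.

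Other tissue markers had few named members. MADS58, a floral organ gene kept in the list of nucellus and maternal tissue, was at 85.7, 97.0 and 97.4 RPKM in WT replicates 1, 2 and 3, with WT replicate 2 inside the range of the others. OSH1, a homeobox gene of the embryo and shoot meristem, was at 3.00, 6.08 and 5.93 RPKM. GLUD1, the storage protein gene found by name, had under 1 RPKM in every WT library. In the photosynthesis list the single gene found by name, petE, was at 0 in all 6 libraries. Outside the list the table names petC, a subunit of the cytochrome b6f complex of the chloroplast, which was at 45.2, 59.2 and 52.7 RPKM in WT and at 68.9, 81.2 and 63.6 RPKM in the mutants. WT replicate 2 was the highest WT library for petC, which was picked after its values were seen. Of 44 rows of plastid-encoded genes, 1 had a mean of at least 1 RPKM, rbcL, which was at 0.666, 1.92 and 1.26 RPKM in WT.

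Of 8 chitinase and defence genes with a mean of at least 1 RPKM, 5 had WT replicate 2 below WT replicates 1 and 3 and 1, WRKY71, had it above both, at a median log2 ratio of -0.54. Cht7, a chitinase, was at 0.35, 0 and 0.34 RPKM in WT and at 2.97, 2.25 and 3.41 RPKM in the mutants, and was called higher in the mutants (limma adjusted p = 0.030). CSLD1, a cellulose synthase-like gene, was at 1.70, 0.225 and 1.44 RPKM in WT and at 1.62, 2.22 and 1.87 RPKM in the mutants, which overlapped WT. Of 3 sugar transporters, SUT2 was below both other WT libraries, MST6 above both and MST4 between, and 20ox2, a gibberellin oxidase gene, was between them. The part of grain age or of tissue make-up in the low levels of the 83 genes was not tested, and too few markers are named in the table to give the genes a tissue or stage.

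At the threshold, Os05g0559800, Os01g0118400 and Os09g0532200 were just inside, with WT replicate 2 at 34.8%, 34.8% and 34.9% of the lowest other library. Os02g0487300, Os06g0125200 and Os02g0459300 were just outside, at 35.2%, 35.2% and 35.3%. Os01g0118400 was at 5.75, 2.00 and 6.40 RPKM in WT replicates 1, 2 and 3 and at 6.34, 8.13 and 7.0 RPKM in the mutants. No gap in this ratio set the genes apart from the rows just outside.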

How the data were processed

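The authors deposited RPKM values, one column for each library, beside mean columns that served only as a check. Per the submitters' processing notes, the genome build named is IRGSP-1.0. Which aligner and counter were used, whether strand was used and which annotation applied is not given in the sources used here, so overlapping and near-identical genes are uncertain. Columns were matched to libraries by name; 6 of the 7 libraries had one, and osbzip76-2 replicate 1 was not analysed here. Low RPKM values rise in steps of 1 read, from which library totals and model lengths were recovered, and 99.98% of 168975 values came out whole within 0.02 reads.

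The test was limma 3.58.1 (R 4.3.3; lmFit and eBayes with a trend, two-sided) on log2(RPKM + 1) for genes with a mean of at least 1 RPKM over the fitted libraries, a scale that understates changes of low genes. The Benjamini-Hochberg adjustment ran over all genes tested, with a threshold of 0.05. Mutants were set against WT in a 2-group fit and the alleles against each other in a 3-group fit, both without WT replicate 2. Nothing in the labels says that the plants were independent beyond the word biological, so p values measure the spread between these libraries. The fits were tested on simulated reads with known changes. For mutants against WT, 83% of 2-fold and 91% of 4-fold changes were recovered. Between the alleles, 47% of 2-fold and 96% of 4-fold changes were recovered. The simulation gave every gene the same spread, which was not taken from these libraries, so these shares may not hold for them.

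The 83 genes, the tests and the gene lists were chosen with earlier results of these data known. Of the 19 lists fixed by symbol, 9 had no gene found by name, and a list of plastid-encoded genes was added after seeing the table. Described by identifier were the 10 most abundant genes, the 10 lowest in WT replicate 2, those past a threshold, those beside the selection limit and the 5 with the widest range; others were named after their values were seen, as the 6 genes lower in the mutants and the neighbouring identifiers. Names and synonyms were looked up in a RefSeq gene table (assembly ASM3414082v1), which holds none of the 83 identifiers. Alternatives were another pseudocount, no filter, median-of-ratios scaling, limma-voom on recovered reads, WT replicate 2 included, a replicate block, leaving out each library and, added after seeing the data, a choice of genes by WT libraries only.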

Additional observations from a re-analysis of the deposited data

Results flagged for a closer look

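Of the 83 genes, 4 are singled out because the osbzip76-2 library differed from the 2 osbzip76-1 libraries in a limma test of that difference. The limma log2 fold changes of osbzip76-2 against osbzip76-1 were 1.74 for Os06g0133000, -0.91 for Os07g0594400, -1.10 for Os06g0683800 and -0.70 for Os01g0518000. With 1 osbzip76-2 library, an effect of the allele and a deviation of that library cannot be told apart. In it, Os06g0133000 lay above both osbzip76-1 libraries and the other 3 below both. With WT replicate 2 included limma called none of the 4. The fold changes were the same, as they must be, because no WT library enters the difference between the alleles. WT replicate 2 adds to the spread that the test uses, which the choice of genes favours. The SE of the 4 ran from 0.12 to 0.27 without it and from 0.58 to 1.13 with it. None of the 4 was called without the filter on low values, without WT replicate 1 or without WT replicate 3 either.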

How the results depend on the processing

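The number of genes found by the rule moved with its limits, from 83 to 36 at 0.25 times, 236 at 0.5 times, 270 at a minimum of 1 RPKM and 43 at 10 RPKM. It was 173 with the minimum over WT replicates 1 and 3 only, an alternative chosen after seeing the data. It was 67 with median-of-ratios scaling, all of them among the 83, and 84 to 107 when 1 of the 5 other libraries was left out. For mutants against WT, 8 of the 83 genes and 108 of all genes were called. Without the filter these were 2 and 57. With WT replicate 2 included 0 of the 83 and 83 of all genes were called by limma, with 30 of the 83 higher at an unadjusted p below 0.05. The choice of genes favours a loss of calls among the 83 in any fit that holds WT replicate 2. Leaving out 1 library gave 0 to 25 of the 83 and 14 to 554 of all genes, and without osbzip76-1 replicate 2 there was 1 call in the lower direction. For the alleles, 4 of the 83 and 264 of all genes were called. These were 1 and 123 with a pseudocount of 0.1, 0 and 101 without the filter (limma; 6 higher and 23 lower at an unadjusted p below 0.05), 8 and 431 with limma-voom, and 0 and 46 with WT replicate 2 included (1 higher and 0 lower at an unadjusted p below 0.05). Leaving out 1 library gave 0 to 13 and 122 to 552, the 0 without WT replicate 1 or 3, where limma had 5 genes higher and 19 or 20 lower at an unadjusted p below 0.05. Without osbzip76-2 replicate 2 the alleles could not be compared. The causes were not tested.

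Same-numbered libraries had deviations correlated at 0.219, -0.333 and 0.374, and WT and mutant libraries of unlike number at -0.348 to 0.283. The value of 0.374, the highest of any pair, was that of WT replicate 2 with osbzip76-2 replicate 2. Whether a replicate number marks libraries handled together was not tested. With WT replicate 2 included and a replicate block, limma called 0 of the 83 and 32 of all genes for mutants against WT (58 of the 83 higher at an unadjusted p below 0.05) and 0 of the 83 and 32 of all genes between the alleles (4 higher). The median log2 fold change of the 83 between the alleles turned from -0.27 to 0.19 under the block. Without WT replicate 2 the groups share 1 number, and no block was fitted. Of the 12 called genes, no alternative reversed a direction; in 52 of 128 refits the call held and in 76 it did not.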
